A study of Rattus norvegicus with 6 samples.

Results

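The genes described here encode CPI-17 (Ppp1r14a), the protein inhibitor of myosin phosphatase, and 9 further proteins that set the phosphorylation of the myosin regulatory light chain in smooth muscle. They are the light chain and its kinase (Myl9, Mylk), 3 subunits of myosin phosphatase (Ppp1r12a, Ppp1r12b, Ppp1cb), and the RhoA branch (Rhoa, Arhgef1, Rock1, Rock2). These 10 genes were taken from the 18166 genes that the array measured with a probe set naming 1 gene alone. For each gene the probe set with the highest mean over all 6 arrays was to be used. Each of the 10 had a single such probe set, so this mean decided nothing. The group itself was chosen by earlier results on these arrays, headed by the low SAH value of Ppp1r14a, so counts over the 10 are a description.

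Cerebral arteries were taken from male rats, and biotinylated cRNA prepared from 6 µg of total RNA per sample was hybridised, giving 6 arrays. The SAH group held 3 arrays, numbered 1, 4 and 5, from rats killed 6 hours after subarachnoid haemorrhage (SAH), bleeding into the cerebrospinal fluid space that surrounds the brain. The sham group held 3 arrays, numbered 6, 7 and 8, from sham-operated rats, whose labels give no time. The sources used here do not give strain, age, the way the bleed was made or whether animals were pooled. Nothing says that each array is another animal, so a p-value covers only the spread among these 6 samples, which may be technical. Values by array are given in the order SAH 1, 4, 5 and sham 6, 7, 8 throughout.

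Contraction of arterial smooth muscle follows the phosphorylation of the regulatory light chain. Myosin light chain kinase, activated by calcium and calmodulin, adds the phosphate, and myosin phosphatase removes it. RhoA, through the ROCK kinases, and protein kinase C, through CPI-17, slow the phosphatase, which raises force at a given calcium level and is known as calcium sensitisation. In cerebral arteries this branch is known for its part in sustained constriction.

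Ppp1r14a fell after SAH. Its log2 values (RMA, a normalised probe set summary) were 9.90, 9.57 and 9.32 in the SAH group, against 10.92, 10.92 and 10.50 in the sham group. The SAH values all lay below the sham values, and the highest SAH value was that of array 1. The group means were 9.60 ± 0.29 and 10.78 ± 0.24 (SD, n = 3 each), a 2.27-fold lower value in SAH (limma, difference -1.18 ± 0.19 (SE), 95% interval -1.62 to -0.74, adjusted p = 0.0496 over all probe sets). Among the 18166 genes this was the 31st lowest difference. It was the only one of the 10 genes called, against 0.33% of all genes called lower at an adjusted p under 0.05. None of the 10 was called higher, against 0.963% of all genes. In bulk RNA, fewer smooth muscle cells and less RNA per cell cannot be told apart.

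**Figure D1:**
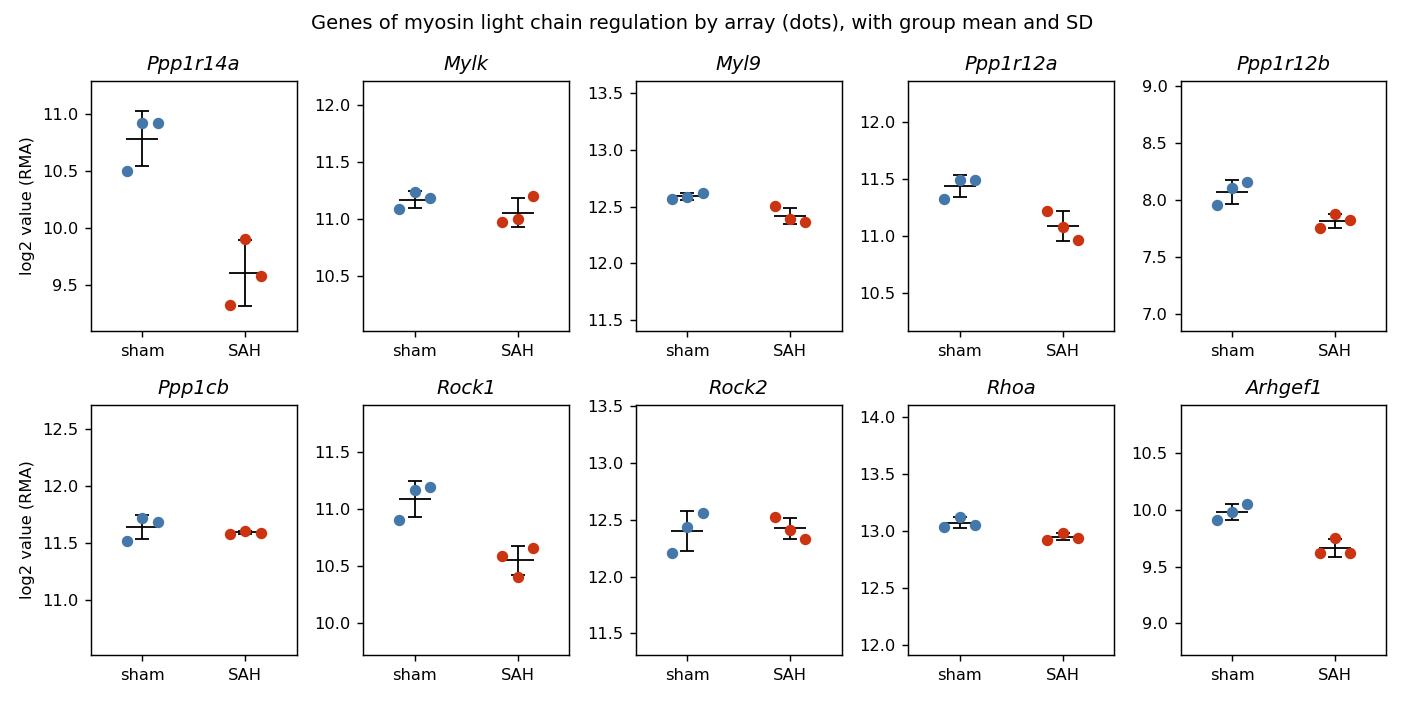
Log2 values (y axis, RMA) of the 10 genes in the sham (blue) and SAH (red) arrays, each dot an array, with the group mean and SD (n = 3 each) in black; every panel spans the same log2 range. Ppp1r14a sits at 9.32 to 9.90 in SAH and 10.50 to 10.92 in sham, while Rock2 and Ppp1cb overlap between the groups.

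The sequence before the start of Ppp1r14a is shown because this was the gene that fell. That of Mylk stands beside it as a gene of the same pathway whose groups overlapped. Both are the 250 bases before the RefSeq gene start in GRCr8: chr1:93713852-93714101, plus strand, for Ppp1r14a and chr11:79498575-79498824, minus strand, for Mylk. Capitals mark GC boxes (GGGCGG, either strand) and the MCAT element (CATTCC, either strand).
Ppp1r14a: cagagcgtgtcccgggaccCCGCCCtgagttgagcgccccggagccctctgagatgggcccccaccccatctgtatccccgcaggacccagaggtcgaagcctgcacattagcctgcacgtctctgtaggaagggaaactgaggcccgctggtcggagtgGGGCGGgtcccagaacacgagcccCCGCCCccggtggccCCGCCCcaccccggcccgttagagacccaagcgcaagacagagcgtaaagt
Mylk: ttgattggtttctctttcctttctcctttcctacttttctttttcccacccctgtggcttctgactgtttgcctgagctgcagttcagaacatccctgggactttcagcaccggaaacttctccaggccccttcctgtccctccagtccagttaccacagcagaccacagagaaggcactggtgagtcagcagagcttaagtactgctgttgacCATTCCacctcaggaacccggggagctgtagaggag
The Ppp1r14a window held 4 GC boxes and was 68.4% G and C, and the Mylk window held no GC box, 1 MCAT element and 52.4% G and C. GC boxes were in 6 of the 9 windows found for the 10 genes, against 30.5% of 33469 rat windows, which had a median of 51.2% G and C. They were in the windows of Rock1 and Rock2 alike. Rock2 and Ppp1cb, whose groups overlapped as those of Mylk did, held 7 and 3 GC boxes. No CArG box, the binding motif of serum response factor, was found in the 9 windows, and 1.5% of all windows hold one. The MCAT element was in 12.1% of all windows. These matches are of letters only, on both strands, and the motifs do not overlap in the windows shown. Only 1 window was read for each of these genes, before its annotated start, so any start farther inside a gene was not covered.

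The phosphatase subunits had smaller differences, none of which passed. Ppp1r12a, which encodes the myosin-targeting subunit MYPT1, read 11.08, 10.96 and 11.22 in the SAH group, against 11.50, 11.49 and 11.33 in the sham group. Its groups did not overlap, with a difference of -0.35 ± 0.11 (SE), which did not pass (limma adjusted p = 0.225). Ppp1r12b, the related subunit MYPT2, read 7.88, 7.82 and 7.76 against 8.10, 8.16 and 7.96, again without overlap. Its difference was -0.26 ± 0.10 and did not pass either (limma adjusted p = 0.312). Ppp1cb, the catalytic subunit, read 11.61, 11.59 and 11.58 in SAH and 11.72, 11.68 and 11.52 in sham, so the SAH values lay inside the sham range. Its 95% interval ran from -0.28 to 0.19.

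The 2 ROCK kinases phosphorylate MYPT1 and so slow the phosphatase. Rock1 read 10.40, 10.66 and 10.59 in the SAH group, against 11.17, 11.19 and 10.90 in the sham group. All SAH values were below all sham values, the difference was -0.54 ± 0.12 (SE), or 1.45-fold lower, and it did not pass over all probe sets (limma adjusted p = 0.124). Rock1 held the 601st lowest difference of all genes and the 95% interval ran from -0.83 to -0.24. Rock2 read 12.41, 12.33 and 12.52 in SAH and 12.43, 12.55 and 12.21 in sham. These overlapped fully, at 0.03 ± 0.12, with an interval of -0.26 to 0.32. Taken as Rock1 minus Rock2, each set to its sham mean, the SAH arrays stood at -0.70, -0.37 and -0.63 and the sham arrays at 0.04, -0.05 and 0.01. For the related pair Ppp1r12a minus Ppp1r12b the SAH arrays stood at -0.16, -0.22 and 0.10 and overlapped the sham arrays. These pairs were chosen after their values were seen and carry no test.

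Rhoa, the small GTPase that switches the ROCK kinases on, read 12.98, 12.94 and 12.92 in SAH and 13.12, 13.06 and 13.03 in sham. The groups did not overlap, but the difference was only -0.12 ± 0.09 (SE), which did not pass (limma adjusted p = 0.603). Arhgef1, an exchange factor that loads RhoA with GTP downstream of G protein-coupled receptors, read 9.76, 9.62 and 9.62 against 9.98, 10.05 and 9.91. It was lower in every SAH array, at -0.32 ± 0.10 (limma adjusted p = 0.214).

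On the kinase and substrate side, Mylk, for myosin light chain kinase, read 11.00, 11.20 and 10.97 in SAH and 11.24, 11.18 and 11.09 in sham. The groups overlapped, at -0.11 ± 0.11 (SE), with a 95% interval from -0.37 to 0.14. Mylk also encodes telokin, an activator of the phosphatase, and 1 value per gene does not separate these products. Myl9, the smooth muscle regulatory light chain itself, read 12.39, 12.37 and 12.50 against 12.59, 12.62 and 12.56. Its groups did not overlap, with a difference of -0.17 ± 0.09 (limma adjusted p = 0.465).

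Over the 10 genes, 9 differences were below 0, against 52.7% of all genes. The groups of 7 genes did not overlap, with SAH lower, against 15.4% of all genes, and none had SAH values wholly higher (11.4% of all genes). The median difference was -0.21, beside -0.01 over all genes. At an unadjusted p under 0.05, 5 of the 10 were lower, against 10.5% of all genes. Since the members were chosen with results known, these counts describe them and test nothing.

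Ppp1r14a was also set against each other member within the arrays. Its difference minus that of the other gene ran from -1.21 log2 units, against Rock2, to -0.65, against Rock1. In all 9 pairs the SAH arrays lay wholly below the sham arrays. Ppp1r14a headed the choice of the group by its low SAH value, so this separation was largely set beforehand and is a description. The exact two-sided permutation test gave p = 0.1 for every pair, and 0.1 after Benjamini-Hochberg adjustment over the 9 pairs. This is the smallest p that 3 arrays against 3 allow, so no pair could pass.

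The call of Ppp1r14a was close to the threshold. It held in 4 of 13 alternative fits and was lost in 9, with the value below 0 in all 13. Leaving out 1 array gave -1.33 without SAH array 1 (limma adjusted p = 0.0224), -1.17 without SAH array 4 (0.173) and -1.05 without SAH array 5 (0.144). Without a sham array the values were -1.11 for array 6 (0.23), -1.11 for array 7 (0.21) and -1.32 for array 8 (0.0761), so the call remained only when SAH array 1 was left out. No other member was called in any of the 13 fits at the threshold of 0.05, or in the main fit at 0.10. With dim probe sets filtered out, Rock1 had a limma adjusted p of 0.052 and Arhgef1 of 0.0976. For Rock1 it was 0.0811 with limma's trend and robust options and 0.0897 with array weights. These were the lowest values. The highest limma adjusted p was 0.469 for Rock1 and 0.634 for Arhgef1, both with each array's mean of neutrophil markers as a covariate.

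**Figure D2:**
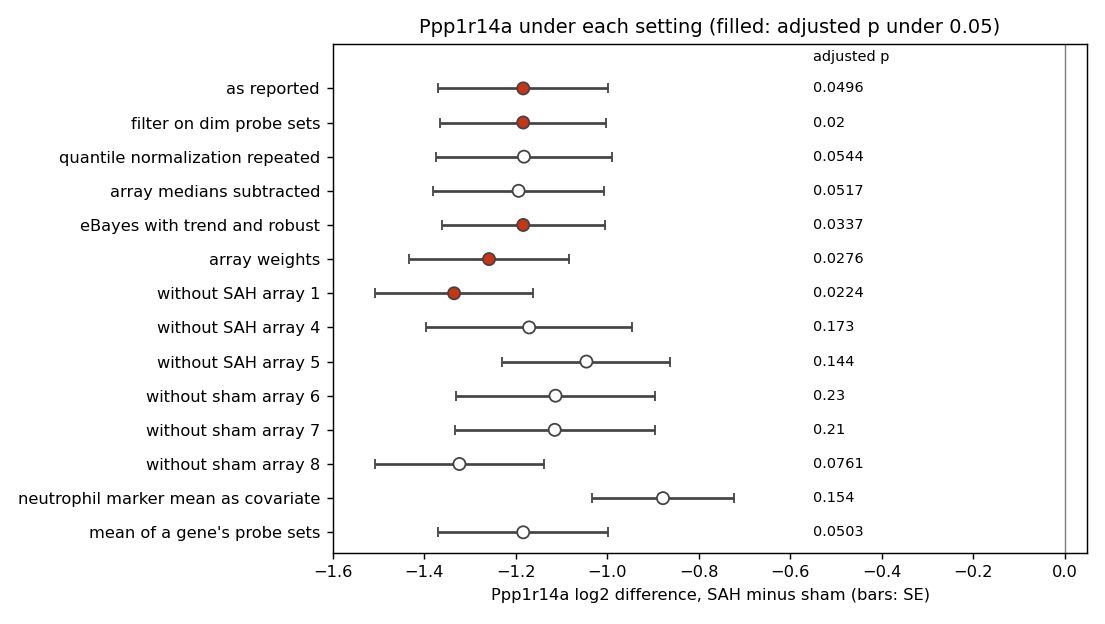
Log2 difference of Ppp1r14a, SAH minus sham (x axis), with limma's SE as bars, under each processing setting (y axis) and its adjusted p printed beside it; filled dots have an adjusted p under 0.05. All values lie between -1.33 and -0.88.

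The wider pathway was read from 4 further lists of 64 genes, of which 55 were measured: phosphatase subunits and inhibitors, kinases, RhoA regulators, and myosin chains with calmodulin. None of the 55 passed in the limma fit (1.29% of all genes were called in either direction). At an unadjusted p under 0.05, 16 were lower and 2 higher, against 10.5% and 8.16% of all genes. The groups of 17 did not overlap with SAH lower, against 15.4% of all genes, and those of 3 with SAH higher, against 11.4% of all genes. The median of the 55 differences was -0.12.

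**Figure D3:**
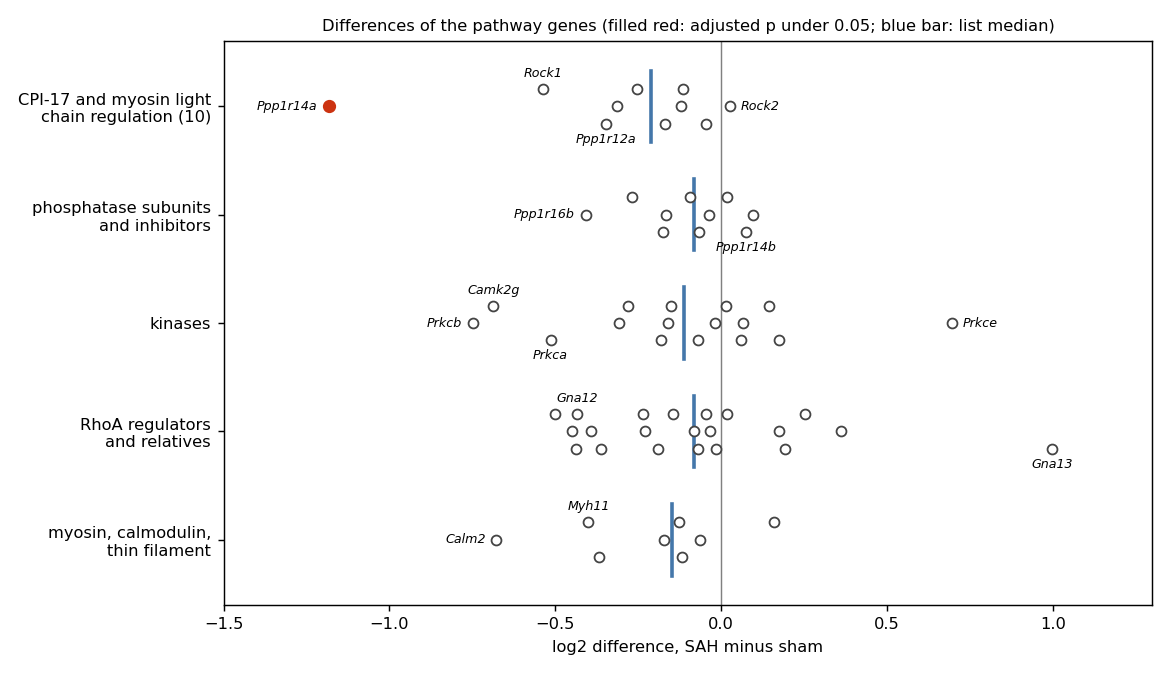
Log2 differences, SAH minus sham (x axis), of the measured genes of each list (rows), each circle a gene, with the list median as a blue bar and the called gene filled in red. Ppp1r14a at -1.18 is the only filled point; Gna13 at 1.00 and Prkce at 0.70 lie farthest to the right.

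Among 10 phosphatase subunits and inhibitors the median difference was -0.08. Of the other CPI-17 family inhibitors, Ppp1r14b differed by 0.08 ± 0.11 (SE, 95% interval -0.19 to 0.34), Ppp1r14c by 0.02 ± 0.09 and Ppp1r14d by -0.07 ± 0.14, and none passed. Ppp1r14c read 6.48 to 6.64, below every array median (7.31 to 7.37), and Ppp1r14d read 7.26 to 7.72, near the medians. At such low levels a difference near 0 does not show that these genes were unchanged. Ppp1r16b, a relative of MYPT1 known from endothelium, differed by -0.41 ± 0.16 and Ppp1r12c, another myosin-targeting subunit gene, by -0.27 ± 0.11, with limma adjusted p of 0.315 and 0.332.

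Of 16 further kinases (median -0.11), Prkce, for protein kinase C epsilon, read 9.08, 9.33 and 9.47 in the SAH group, against 8.59, 8.70 and 8.52 in the sham group. Every SAH value was above every sham value, at 0.70 ± 0.13 (SE), with a limma adjusted p of 0.0767. Camk2g, a calmodulin-dependent kinase subunit of smooth muscle, read 11.52, 11.23 and 10.98 in SAH and 12.01, 11.99 and 11.78 in sham, without overlap, at -0.69 ± 0.16 (limma adjusted p = 0.121). Prkca, the protein kinase C isoform best known for phosphorylating CPI-17, differed by -0.51 ± 0.17. Prkg1, the cyclic GMP-dependent kinase that promotes relaxation, differed by -0.02 ± 0.12.

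The RhoA regulators and relatives (21 measured, median -0.08) held the highest difference. Gna13, a G protein alpha subunit that couples receptors to RhoA exchange factors, read 11.15, 11.69 and 11.81 in the SAH group, against 10.41, 10.54 and 10.71 in the sham group. It was higher in every SAH array, at 1.00 ± 0.19 (SE), or 2.0-fold, with a limma adjusted p of 0.0799. Its relative Gna12 read 11.25, 11.24 and 11.35 against 11.75, 11.73 and 11.66, and was lower in every SAH array, at -0.44 ± 0.09 (limma adjusted p = 0.104). A dimmer second probe set of Gna12 overlapped between the groups, at -0.14 ± 0.13. Leaving out SAH array 1 brought Gna13 (1.20, limma adjusted p = 0.0128), Prkce (0.80, 0.0299) and Camk2g (-0.82, 0.043) past the threshold. None of these passed with any other array left out, where the limma adjusted p reached 0.297 for Gna13, 0.288 for Prkce and 0.377 for Camk2g. With each array's mean of neutrophil markers as a covariate it was 0.351, 0.322 and 0.45. The share of all genes that passed under these settings is not given here. With dim probe sets filtered out Gna13 (0.0335), Prkce (0.0303) and Gna12 (0.039) passed with the same differences as in the full fit, and with array weights Gna13 alone passed (1.06, 0.0407).

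**Figure D4:**
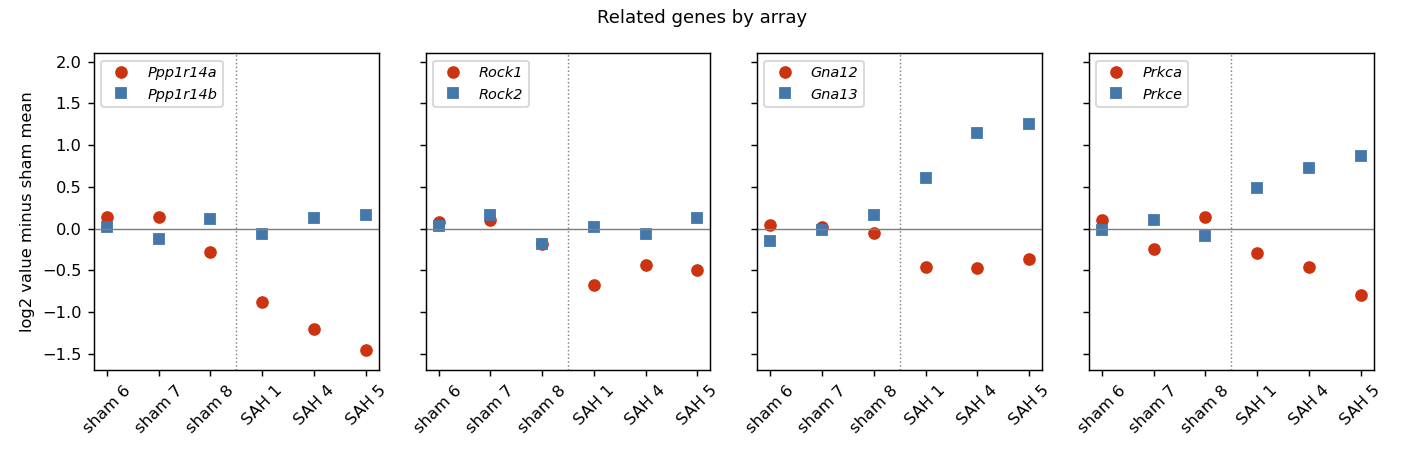
Log2 value minus the sham mean (y axis) in each array (x axis, sham left and SAH right of the dotted line) for 4 pairs of related genes chosen after their values were seen, all pairs without overlap between the groups; the overlapping pair Ppp1r12a and Ppp1r12b is not drawn. Ppp1r14a, Rock1, Gna12 and Prkca (red circles) lie below 0 in all SAH arrays, while Gna13 and Prkce (blue squares) lie above 0 and Ppp1r14b and Rock2 near 0.

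Of 8 genes for myosin chains, calmodulin and thin filament proteins, 7 had differences below 0 (median -0.15). Calm2, 1 of the genes for calmodulin, which activates the light chain kinase, read 11.33, 11.44 and 11.04 in SAH, below all sham arrays, at -0.68 ± 0.15 (SE, limma adjusted p = 0.118). Myh11, the smooth muscle myosin heavy chain, differed by -0.40 ± 0.11 (limma adjusted p = 0.174).

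Of 6 smooth muscle markers measured, 1 was called lower, against 0.33% of all genes. In 5 of them the SAH values lay wholly below sham, against 15.4% of all genes. Smtn, for smoothelin, fell by 1.18 ± 0.13 on the log2 scale (SE, limma adjusted p = 0.0197). Its call was lost when SAH array 4 (limma adjusted p = 0.0988) or 5 (0.0701) was left out, or sham array 6 (0.125) or 7 (0.108), and with each array's neutrophil marker mean as a covariate (0.114). The other markers, Myh11 (-0.40), Lmod1 (-0.26), Des (-0.20), Tagln (-0.15) and Synpo2 (0.02), did not pass. The summed linear level of all 6 was 31802 to 33606 in SAH and 35906 to 40221 in sham arrays. Acta2 and Cnn1, also on this marker list, were not analysed here. Set to its own sham mean, Ppp1r14a stood at -0.88, -1.21 and -1.46 in the SAH group and the median of the smooth muscle markers at -0.26, -0.22 and -0.29. The part of these markers in the values of Ppp1r14a and Rock1 was not tested.

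Neutrophil markers moved with the arrays too. The median of 12 measured markers lay 0.95, 0.95 and 2.38 over its sham mean in the SAH group, against -0.71, -0.68 and 1.42 in the sham group, with none called. Their summed linear level was 12618 to 23143 in SAH and 4207 to 14738 in sham. In sham array 8, Ppp1r14a (10.50) was lower than in the other sham arrays and still above all SAH arrays. All 10 members were lowest of the sham group in that array, as were 41.1% of all genes. With the neutrophil marker mean of each array as a covariate, Ppp1r14a differed by -0.88 ± 0.16 (SE) and was not called (limma adjusted p = 0.154).

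**Figure D5:**
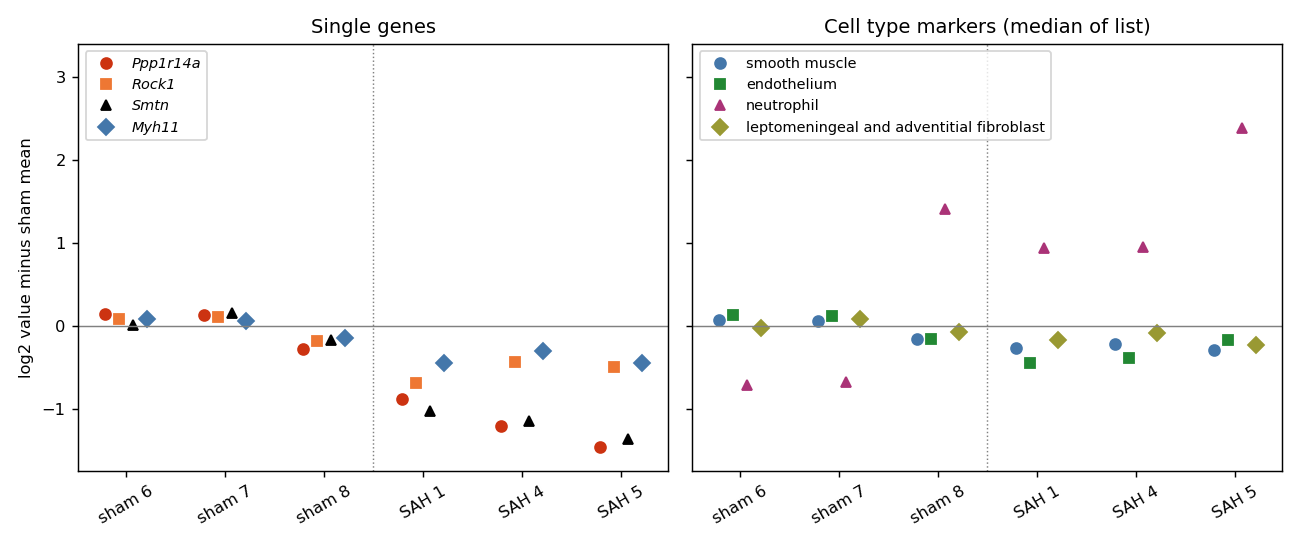
Log2 value minus the sham mean (y axis) in each array (x axis) for Ppp1r14a, Rock1 and 2 smooth muscle genes (left) and for the median of each marker list (right). Ppp1r14a and Smtn lie near or beyond -1 in the SAH arrays, the smooth muscle median between -0.29 and -0.22, and the neutrophil median is high in sham array 8 and all SAH arrays.

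The genes whose values over the 6 arrays were most like those of Ppp1r14a, by Pearson's r, were Scp2 (0.998), Mas1l (0.998), Atg13 (0.997), Apbb1 (0.997) and Golim4 (0.996). With 6 arrays in 2 groups such values are high for many genes and are given as a description. Mas1l, a G protein-coupled receptor gene, had the 8th lowest difference of all genes, at -1.48 ± 0.22 (SE, limma adjusted p = 0.0416). Its call was lost when SAH array 4 (limma adjusted p = 0.157) or 5 (0.119) was left out, or sham array 6 (0.207), 7 (0.178) or 8 (0.0761), and with the neutrophil covariate (0.15). Scp2, a sterol carrier protein gene, differed by -0.36 ± 0.10 and Atg13, of the autophagy initiation complex, by -0.50 ± 0.12, and neither passed. Among the members, Arhgef1 (0.987) and Ppp1r12b (0.974) had the highest r with Ppp1r14a and Rock2 the lowest (0.01).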

How the data were processed

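The authors deposited 1 log2 value per probe set and array. These were made in Affymetrix Expression Console 1.1.2 by RMA, per the submitters' processing notes. Its settings, any genome build and scan dates were not given in the sources used here. The values were used as deposited. RMA makes the arrays share nearly 1 distribution (array medians 7.31 to 7.37), so a general change in RNA amount cannot be seen, and the number of arrays limits the precision. Of 36685 probe sets, 190 controls were set aside. GEO's platform annotation named 1 gene for 18511 of the other 36495, several for 575 and none for 17409; 18394 of the 18511 matched the RefSeq table (GRCr8) by Entrez ID.

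The 2 groups were fitted in limma 3.58.1 (R 4.3.3; lmFit and eBayes, two-sided, without covariates). P-values were adjusted by Benjamini and Hochberg's method across the 36495 probe sets, and the threshold was 0.05. The test was tested on simulated data. Pairs of members were compared by exact permutation. The members, the lists and the tests were chosen with earlier results of these data known. Named genes were all members, the called genes of each pathway list or else the 2 with the smallest p, and the 5 genes most like Ppp1r14a; the other genes named were chosen after their values were seen. Alternatives were dropping dim probe sets (kept if above their array's median on at least 3 arrays), 2 scalings, trend and robust options, array weights, a threshold of 0.10, each array left out, a neutrophil covariate, and gene means over probe sets. Promoter windows came from RefSeq, and Myl9 was not matched there.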

Additional observations from a re-analysis of the deposited data

How the results depend on the processing

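Ppp1r14a kept its direction in all 13 alternative fits. Its call ended when quantile normalization was repeated (-1.18, limma adjusted p = 0.0544), array medians were subtracted (-1.19, 0.0517), the neutrophil mean was a covariate (-0.88, 0.154) or probe sets of a gene were averaged (-1.18, 0.0503). The count of called members was then 0 against 1 in each of these 4 fits. Left-out arrays gave values of -1.33 to -1.05 and 0 to 1 called members. For the 55 other pathway genes the count of calls was 0, but 3 with the dim filter, 1 with array weights, 2 at an adjusted p under 0.10 and 0 to 3 with an array left out. The share of all genes called under each of these settings is not given here, so these counts describe no trait of the pathway. Rock2 reversed with array weights (-0.0091) and ranged from -0.070 to 0.10 over left-out arrays, and Ppp1cb reversed with the covariate (0.044). The 9 pair differences kept their sign in all 8 alternatives run for them. A change in scaling moved the median of all genes from -0.01 to -0.02. The causes were not tested. With 1 array left out, 2 remain in that group. No paired analysis was possible because the groups share no replicate numbers.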

Other observations

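Markers of other cells were read beside these genes, and none was called. Endothelial markers (6 measured) had a summed linear level of 8240.24 to 8753 in SAH and 7981 to 9747 in sham. Their median difference was -0.29, with 5 below 0 and 1 above, against 52.7% of all genes below 0. The marker above 0 was Cdh5, for VE-cadherin, higher in every SAH array (0.61 ± 0.11 SE, limma adjusted p = 0.0776). Tek (-0.50 ± 0.15, limma adjusted p = 0.212) and Vwf (-0.29 ± 0.12, 0.352) were lower in every SAH array. Cldn5, a tight junction gene, differed by -0.76 ± 0.24 with overlapping groups (limma adjusted p = 0.23). All 8 leptomeningeal and adventitial fibroblast markers had differences below 0 (median -0.17), against 52.7% of all genes, though Dcn (-0.007) and Pi16 (-0.005) lay near 0. Their summed levels were 24199.7 to 28492 in SAH and 30329 to 32829 in sham. Slc6a13 of this list differed by -1.20 ± 0.45 (SE, limma adjusted p = 0.295), the 30th lowest difference of all genes. Its groups did not overlap, and set to its sham mean it stood at -0.39, -0.88 and -2.33 in the SAH arrays. Sums for 9 monocyte and macrophage markers were 7304 to 7456 in SAH and 6912 to 9026 in sham. Within that list Cd163, a haemoglobin scavenger receptor gene, differed by -1.29 ± 0.44 (SE) and Mrc1, for the mannose receptor, by -1.24 ± 0.39, with overlapping groups and limma adjusted p of 0.25 and 0.218. These were the 17th and 25th lowest differences of all genes, while Itgam (0.56 ± 0.24) and Cd68 (0.37 ± 0.18) lay above 0. Csf1r differed by -0.50 ± 0.11 (limma adjusted p = 0.115) and was the only marker of this list whose groups did not overlap, with SAH lower. Adgre1 differed by -0.39 ± 0.29. Of the 9 differences, 4 were below 0 and 5 above. Sums in SAH and sham were, for 4 erythroid markers 727 to 1187 and 732 to 885, and for 8 neuron and glia markers 1864 to 3123 and 2210.1 to 3649.

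The labelling control thr (mean of 9 probe sets) read 7.02, 7.64 and 7.63 in the SAH group (arrays 1, 4, 5), against 7.23, 7.25 and 7.21 in the sham group (arrays 6, 7, 8). SAH array 1, the lowest for this control, also had the highest Ppp1r14a value of the SAH group (9.90). The controls dap and phe were lowest in SAH array 1 too, but lys was lowest in sham array 6 (5.23, against 5.28 in SAH array 1). Within the SAH group thr was highest in array 4, while Ppp1r14a was lowest in array 5 (9.32). The part of labelling in the Ppp1r14a values was not tested.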
